A study of Mus musculus with 2 samples.

Results

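Hedgehog pathway genes were examined in mouse epiblast stem cells (EpiSC), cultured pluripotent cells that resemble the epiblast after implantation. The 9 genes were taken by name and comprise the ligands Shh and Ihh, the receptor Ptch1, the signal transducer Smo, the ligand-binding protein Hhip, the inhibitor Sufu and the transcription factors Gli1, Gli2 and Gli3. They are 9 of 22755 named genes on the array, and are read by 13 of 39429 probes. Both clones, EpiSC clone 1 and clone 2, were wildtype, female, of C57BL/6 background and at passage 9, and neither had been given a treatment other than the trypsin used to collect them. Each was hybridised once to a 1-colour Agilent array, so each group is a single clone with a single array, and no difference between them has a replicate check. Use of feeder cells in the cultures is not stated in the sources used here.

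In the absence of ligand, Ptch1 keeps Smo inactive, and Sufu together with protein kinase A directs Gli2 and Gli3 towards repressor forms in the primary cilium. Binding of a Hedgehog ligand to Ptch1 releases Smo, and activated Gli proteins then switch on targets that include Gli1, Ptch1 and Hhip, so that Gli1 is widely read as a target gene of the active pathway. In the mouse embryo around gastrulation, Ihh is known from the visceral endoderm and Shh from the node, notochord and floor plate.

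What each probe reads is set by its 60 bases, and the 13 probes did not perform alike, so a stretch of 30 bases is shown for the probes on which the results turn. Sequences are those of the array files, written 5′ to 3′. The probes of Ihh and Gli3 were the 2 of 13 that hold AATAAA, the hexamer that precedes a polyadenylation site (capitals), as did the probe of the third ligand, Dhh (bases 30 to 59 are shown). For Smo, the capitals mark a 13-base repeat of A and C in 1 of its 2 probes (bases 17 to 46). The remaining stretches are bases 31 to 60, with no part marked.
Ihh: atgttttggtctttcttttgtAATAAAaat
Gli3: tcctgcagatgtgtaaAATAAActgtgttc
Dhh: atttgtggccaaAATAAAgattctagagtg
Smo probe a: ttcaagaaccagacaacaggatgccttaga
Smo probe b: acacacagACACACACACACAtacactctc
Ptch1 probe a: gatctttgctgatatttataattttgtatc
Ptch1 probe b: aggtggaggtcatagagctacaggacgtgg
Hhip probe a: ttctagtaggaaaatcttgtgtcttccttg
Hhip probe b: ttttgtctctgttactttctcttcatagtc
Sufu probe a: tgttggaggacttagaagatctaacctctc
Sufu probe b: accaatcaattctcagcgacagaacggcct
Shh: tgagggaaagattattttgtgaggccaagc
Gli1: gaaagaacaaactttaataatgacacagtt
Gli2: ttaactgaatttgcttgttcagtatggcct

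The pathway was represented in both clones by its transducer and by Gli3, while the ligands Shh and Ihh and the target gene Gli1 were not well above background in either. A probe was counted as detected when the scanner software called it well above background, and a gene when any of its probes was. On this rule Ptch1, Smo, Sufu, Gli3 and Hhip were detected on both arrays, 5 of 9, Gli2 in clone 1 only, and Shh, Ihh and Gli1 in neither. For comparison, 61.3% of all genes on the array were detected in both clones. Of the 13 probes, 6 were well above background on both arrays, 1 in clone 1 only, 1 in clone 2 only and 5 in neither, against 54.7% of all probes on both arrays. Of the 4 members with more than 1 probe, Smo was the 1 for which all probes were lit on both arrays.

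Low signals need care in these files. Where a spot did not exceed its own error, the software replaced the signal by a small positive value, called a surrogate, which measures no RNA. Surrogates stood at 20.3% of spots in clone 1 and 19.5% in clone 2. Among the 13 probes, 4 carried a surrogate on both arrays (those of Shh and Ihh, Ptch1 probe a and Hhip probe a), and that of Gli1 did so in clone 1. For these the background-subtracted signal is given instead, with the software's error for a spot (1 SD). That error covers the reading of an array, not culture or RNA preparation. Other values are processed signals with the same kind of error, and differences are clone 2 minus clone 1 in log2 after scaling each array to its 75th percentile (819 for clone 1, 726 for clone 2).

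**Figure D1:**
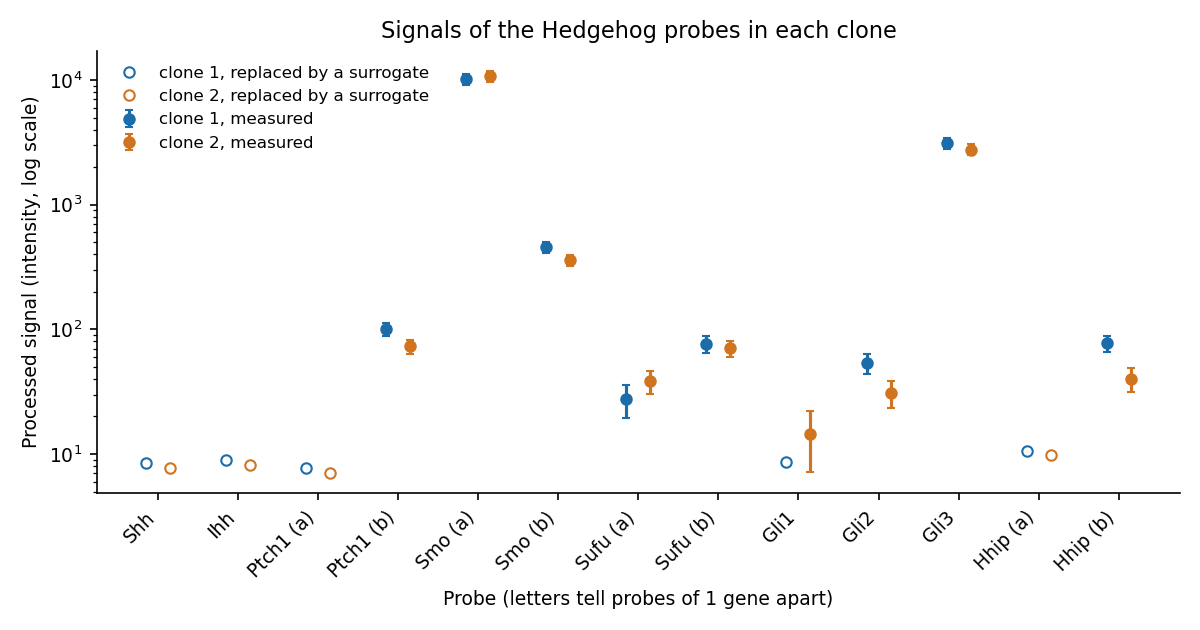
Processed signal (log axis) of the 13 probes of the Hedgehog members in clone 1 and clone 2, before scaling between arrays; filled points are measured signals with the software's error of 1 SD, and open points are surrogates. Smo probe a and Gli3 stand far above the range of the open points in both clones, while the points of Shh and Ihh are open in both.

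Shh, the best known ligand of the pathway, was read by a probe at chr5:28783983-28784042 (mm9, minus strand) that is printed 10 times on each array. The background-subtracted signal of these spots ran from -40.1 to -13.0 in clone 1, with a median of -18.4. In clone 2 it ran from -20.5 to -0.39, with a median of -17.0. All 10 spots were below zero and carried surrogates on both arrays, and none was called above background by either of the software's flags. The negative control spots, which carry no mouse sequence, had medians of -7.40 in clone 1 and -5.00 in clone 2, so that 10 and 9 of the Shh spots lay below the control median. The lowest spot of clone 1 was flagged as an outlier and was left out of the scaled values. No level of Shh was measurable, and no fold between clones can be given.

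**Figure D2:**
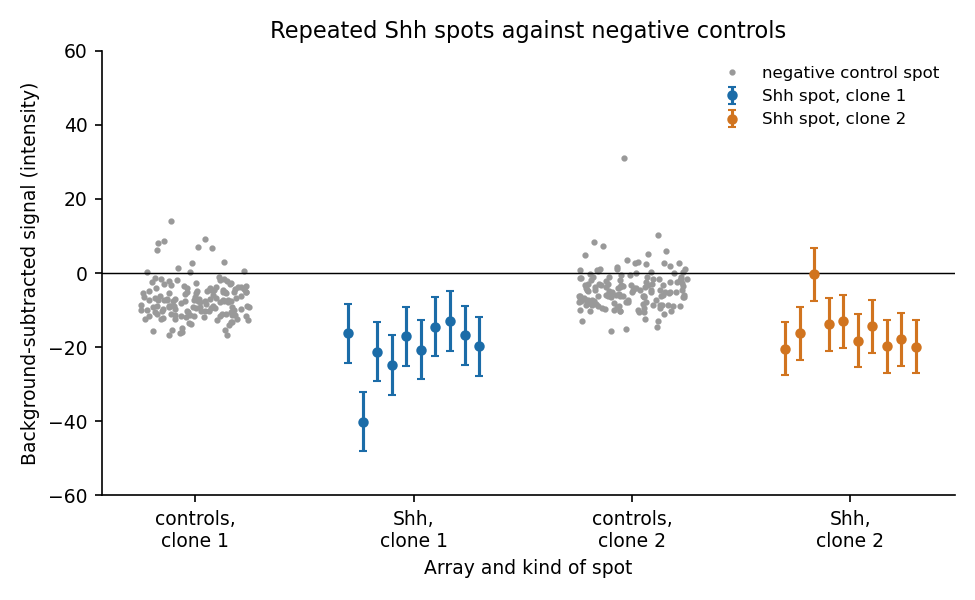
Background-subtracted signal of the 10 Shh spots on each array (coloured, with the software's error of 1 SD) beside the 153 negative control spots (grey); 2 control spots of clone 1 and 1 of clone 2 lie above the axis limit of 60 and are not drawn. Apart from 1 spot of clone 2 at -0.39, the Shh spots lie in the lower part of the band of the controls or below it.

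Ihh, the ligand of visceral endoderm and cartilage, was likewise at background. Its single probe (chr1:74991906-74991965, minus strand) gave -4.65 ± 7.98 in clone 1 and -4.02 ± 7.16 in clone 2, each from 1 spot. Both values were within the software's error of zero and close to the medians of the negative controls.

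Ptch1, the Hedgehog receptor and itself a target gene, was detected through 1 of its 2 probes. Probe b (chr13:63612879-63612938, minus strand) gave 100.3 ± 12.2 in clone 1 against 73.0 ± 9.63 in clone 2. The scaled difference of -0.28 was 1.097 times its error of 0.26, so it was about as large as the reading error of the arrays. Probe a, 2581 bases away, gave -12.2 ± 7.98 and -1.63 ± 7.16 before scaling and carried surrogates on both arrays. Normexp background correction models the background as part of each spot's signal, and here added an offset of 50. With it the difference of probe b was 0.27, in the opposite direction.

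Smo, the membrane protein that passes the signal on, was the member with both probes well above background in both clones. Probe a (chr6:29711225-29711284, plus strand) gave 10097 ± 1010 in clone 1 against 10758 ± 1076 in clone 2, a scaled difference of 0.26 with an error of 0.20. Probe b, 306 bases away and holding the A and C repeat, had 455 ± 46.3 and 361 ± 36.8, a scaled difference of -0.16 with an error of 0.21. The probes thus differed in sign, and the differences were 1.30 and 0.78 times their errors. Their mean was 0.051.

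Hhip, a membrane protein that binds and sequesters ligand and is a target gene, had the largest difference among the 5 members measured on both arrays. Its probe b (chr8:82494280-82494339, minus strand) gave 77.4 ± 11.3 in clone 1 against 40.0 ± 8.66 in clone 2. The level was thus 1.72-fold higher in clone 1. The difference of -0.78 was 2.07 times its error of 0.38. Probe a, 3551 bases away, was at background, with -5.04 ± 7.98 in clone 1 and -6.86 ± 7.16 in clone 2 before scaling. The direction of probe b was not kept under normexp correction, which gave 0.24, and the mean of both probes was -0.36.

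Sufu, the inhibitor that holds Gli proteins in the cytoplasm, was near the limit of detection. Probe b (chr19:46529259-46529318, plus strand) gave 76.2 ± 11.6 in clone 1 against 70.8 ± 10.2 in clone 2, a scaled difference of 0.066 with an error of 0.30. Probe a, 28832 bases downstream, had 27.7 ± 8.26 and 38.5 ± 8.23 and was well above background in clone 2 only. With reading error left aside, this puts it at least 1.24-fold higher in clone 2. The difference of 0.65 between its readings was 1.22 times the error of 0.53. With normexp correction the difference of the gene was 0.55.

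The Gli transcription factors had unlike readings, each from 1 probe. Gli3, which acts chiefly as a repressor when ligand is absent, gave 3121 ± 312 in clone 1 against 2761 ± 276 in clone 2 (chr13:15821502-15821561, plus strand). After scaling these stood at 1.93 and 1.93 log2 above the 75th percentile, a difference of -0.00317 with an error of 0.20, the smallest among the 5 members measured on both arrays. Gli2, the main activator, had 53.6 ± 9.90 in clone 1 and 30.8 ± 7.53 in clone 2 (chr1:120731255-120731314, minus strand). It was well above background in clone 1 only. With reading error left aside, its readings put it at least 1.53-fold higher there, but its difference of -0.62 had an error of 0.44. The Gli2 spot lay beside another spot at least 2-fold apart in the same direction. With normexp correction the Gli2 difference was 0.49.

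Gli1, the target gene most used as a readout of the pathway, was not well above background. Its probe (chr10:126766967-126767026, minus strand) gave a background-subtracted signal of 4.77 ± 8.00 in clone 1, where a surrogate was used, and 14.4 ± 7.31 in clone 2. In clone 2 the spot passed the weaker of the software's flags, which asks only that the signal be positive and significant against background. The clone 1 value lay within its error of zero, so no fold is given.

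None of the 5 members measured on both arrays was 2-fold apart. Over all 13924 genes measured on both arrays, 1.52% stood 2-fold or more above clone 1 in clone 2 (211 genes), and 1.03% the other way (144 genes). When each array was scaled to probes detected in both clones these counts were 166 and 173, and with normexp correction 143 and 61. At 1.5-fold, 1 member was higher in clone 1 (Hhip) and 0 in clone 2, against 3.31% and 5.76% of all genes. The median difference of the 5 members was -0.00317, and that of all measured genes was 0.045.

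**Figure D3:**
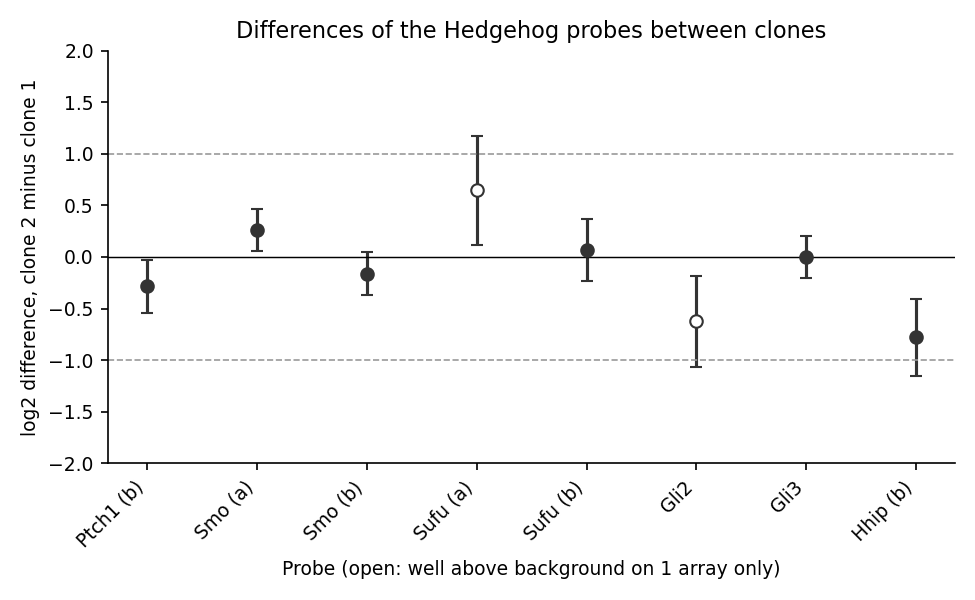
Scaled log2 difference, clone 2 minus clone 1, of the 8 member probes that were well above background on at least 1 array, with the software's error of the difference (1 SD); open points were well above background on 1 array only, and dashed lines mark 2-fold. All 8 points lie between the dashed lines, and the lowest is Hhip probe b at -0.78.

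The state of a probe went with its base composition among the members. The 6 probes lit on both arrays had a GC content of 38.3% to 53.3% and the 2 lit on 1 array had 40.0%, while the 5 dark probes had 21.7% to 36.7%. Over the whole array, split midway between the dark and the lit member probes, the difference was small. Of all probes below a GC content of 37.5%, 50.9% were well above background on both arrays, and of those at or above it 56.6%. The share was lower, 36.1%, for the 609 probes under 30%, where 1 member probe lies (Ptch1 probe a). The part of base composition in the dark Ptch1, Hhip, Shh, Ihh and Gli1 probes was not tested. A stop codon occurred in all 3 forward frames of 4 member probes (those of Shh and Gli2, Ptch1 probe a and Hhip probe a), which therefore cannot lie in coding sequence throughout. Exon positions were not analysed here. The hexamer AATAAA occurred in 12.5% of all probes.

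Of 4 relatives of the members examined here, 3 were detected on both arrays. Dhh, the ligand of testis and peripheral nerve, gave 187 ± 20.0 in clone 1 against 240.5 ± 24.9 in clone 2 (chr15:98723465-98723524, minus strand). The scaled difference of 0.53 was 2.49 times its error. Glis2 and Glis1, zinc finger factors related to the Gli family, were detected in both clones, and Glis3 in neither. Glis2 had 5664 ± 567 and 6193 ± 619, a difference of 0.30. Glis1 had 84.1 ± 10.95 and 153 ± 16.6, which is 2.06-fold higher in clone 2. The Glis1 difference was 1.04 on the log2 scale, 0.97 with scaling to detected probes and 0.87 with normexp correction, so 2-fold was not reached in those settings.

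Of 65 other genes of the pathway, 56 were detected on both arrays and 9 in neither. With the 9 members added, 61 of 74 were detected on both arrays, against 61.3% of all genes. The same share applies to the detection counts of each role below. Of these 61, 1 was 2-fold or more higher in clone 1 (Evc2) and 0 in clone 2. At 1.5-fold, 6 were higher in clone 1 and 2 in clone 2, with the shares of all genes as above. The median difference was 0.034, and 32 were higher in clone 2 against 29 in clone 1.

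Among genes that produce and release ligand, 6 of 10 were detected on both arrays. Shh, Ihh, Disp2 and Scube1 were not. Disp1, which exports the lipid-modified ligand from the cell, gave 122 ± 15.03 in clone 1 against 55.9 ± 9.99 in clone 2, and was 1.94-fold higher in clone 1 (-0.95 with an error of 0.31). Scube2, a secreted protein that helps to release ligand, had 81.8 ± 11.2 and 47.6 ± 9.23 and was 1.53-fold higher in clone 1. Its other probe was not well above background and differed by 0.060. With normexp correction the differences of Disp1 and Scube2 were 0.060 and 0.19. Scube3, of the same family, was higher in clone 2 by both of its probes, with 599 ± 60.3 and 820.0 ± 82.2 for the brighter one (1.54-fold) and a difference of 0.58 for the other.

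All 8 receptors, co-receptors and ligand-binding proteins were detected on both arrays. These include the co-receptors Cdon, Boc and Gas1, which present ligand to Ptch1, and the endocytic receptor Lrp2. Their median difference was -0.066, and Hhip was the 1 that reached 1.5-fold.

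Of 18 cytoplasmic and ciliary-base regulators, 17 were detected on both arrays. The exception was Gpr161, a ciliary receptor that keeps the pathway off. Evc2 and Evc, which form a complex at the base of the cilium that acts downstream of Smo, each differed between clones by their brighter probe, with a second probe well above background in clone 1 only. Evc2 probe a (chr5:37816219-37816278) gave 3630 ± 363 in clone 1 against 1114 ± 112 in clone 2. Clone 1 exceeded clone 2 by 2.89-fold, and the difference of -1.53 was 7.49 times its error. Evc2 probe b had 59.0 ± 10.9 in clone 1 and 23.4 ± 8.17, not well above background, in clone 2. With reading error left aside this is at least 1.69-fold higher in clone 1, and the difference of -1.16 had an error of 0.57.

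Evc showed the same direction. Its probe a (chr5:37690559-37690618) gave 366 ± 37.4 in clone 1 against 166 ± 18.2 in clone 2, a difference of -0.97 (1.95-fold) that was 4.47 times its error. Evc probe b had 47.5 ± 9.31 in clone 1 and 22.7 ± 7.18, not well above background, in clone 2. With reading error left aside this is at least 1.36-fold, and the difference of -0.89 had an error of 0.54. The genes are neighbours, with 0 protein-coding genes between them in the RefSeq table of GRCm38.p6, and are read from opposite strands. With normexp correction the difference of Evc was -0.52 and that of Evc2 -1.56. With scaling to detected probes Evc reached -1.04 and Disp1 -1.03, so that 3 genes of the pathway were then 2-fold apart.

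**Figure D4:**
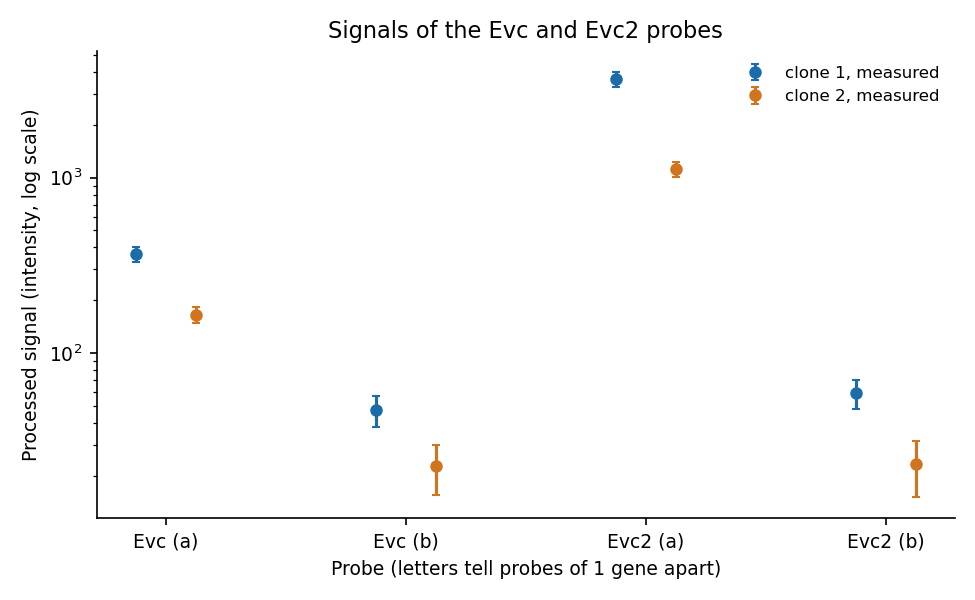
Processed signal (log axis, before scaling) of the 2 Evc and 2 Evc2 probes in each clone, with the software's error of 1 SD; probe b of each gene was not well above background in clone 2. Probe a of each gene is lower in clone 2, 166 against 366 for Evc and 1114 against 3630 for Evc2.

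Of 20 genes listed as Hedgehog targets in other tissues, 13 were detected on both arrays, near the 61.3% of all genes. These 13 were split, with 7 higher in clone 2 (0.25 to 0.64) and 6 higher in clone 1 (-0.78 to -0.28). Their median of 0.25, against 0.045 for all measured genes, is the lowest of the 7 higher values, with no gene between it and -0.28. Those at background in both clones were Gli1 and the transcription factors Foxf1, Foxf2, Foxl1, Foxa2, Nkx2-1 and Foxd1. Mycn, Ccnd1 and Ccnd2, which drive proliferation and also answer to other signals, were detected in both. Osr1, a factor of intermediate mesoderm, was 1.56-fold higher in clone 2, reading 45.9 ± 9.44 in clone 1 against 63.6 ± 9.29 in clone 2. Its difference of 0.64 was 1.77 times its error.

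Of the genes that build and maintain the primary cilium, in which the pathway operates, all 19 listed were detected on both arrays. Their median difference was -0.00872. Ift140, a subunit of the complex that carries cargo back to the base of the cilium, was the 1 gene at 1.5-fold, 1.76-fold higher in clone 1 with a signal of 119 ± 15.3 against 60.1 ± 10.9. Its spot lay beside another that was 2-fold apart in the same direction, and with normexp correction its difference was 0.12.

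**Figure D5:**
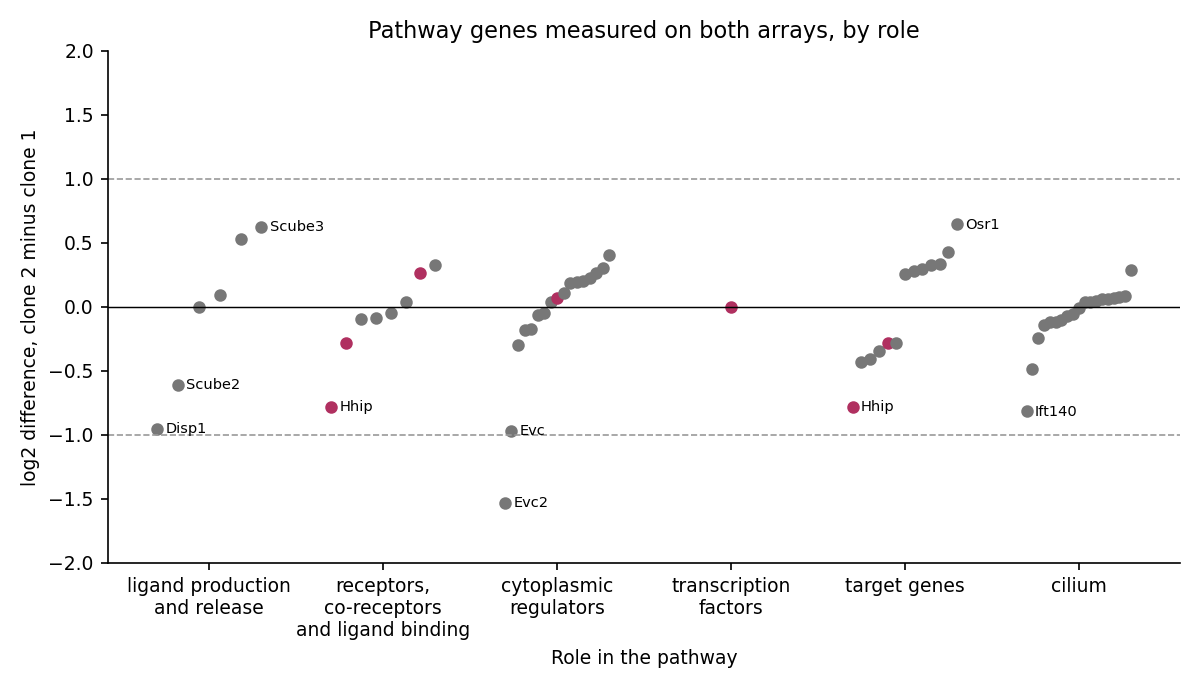
Scaled log2 difference, clone 2 minus clone 1, of each pathway gene measured on both arrays, grouped by role and sorted within a role; the 9 members are in red where measured, a gene may stand in 2 roles, names mark genes at least 1.5-fold apart, and dashed lines mark 2-fold. Evc2 at -1.53 is the 1 gene beyond the dashed lines.

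Promoters were searched for GACCACCCA, the consensus of Gli binding, on both strands from 250 bases before to 50 after the start (RefSeq, GRCm38.p6). Promoter sequences were matched for 7 of the 9 members, all but Shh and Gli1. The letters occurred in 0 of these 7 and in 0.253% of all 32851 promoters (83). At so low a share, 0 of 7 was nearly certain beforehand, and sites further away or with a mismatch were not searched. The count therefore does not tell whether the members lack Gli sites.

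The cell types in the cultures were read from marker genes. All 10 epiblast markers were detected on both arrays, with scaled log2 signals from 0.16 to 5.98 in clone 1 and 0.45 to 6.23 in clone 2. All 14 fibroblast markers that gave a value were detected as well, from -0.71 to 5.91 and from -0.71 to 6.10. Their summed scaled signal was 7.50 log2 in clone 1 and 7.65 in clone 2, with a median difference of 0.13 and single genes from -0.17 to 0.46. The sum of the epiblast list was 7.31 in clone 1 and 7.48 in clone 2. The largest terms of the fibroblast sum, Fn1 (5.91 and 6.10) and Vim (4.96 and 5.09), are not particular to fibroblasts. The next largest were Col1a2 (4.88 and 5.01), Tagln (4.32 and 4.62) and Dcn (3.79 and 3.62). Because Fn1 and Vim enter it, the sum is not a share of fibroblast RNA. Fibroblasts are a cell type in which Hedgehog receptors and Gli genes are known to be expressed, and the part of fibroblast RNA in the signals of Gli3, Smo, Ptch1, Hhip, Evc and Evc2 was not tested.

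Marker lists for visceral endoderm, for node and notochord, and for neural tube and floor plate were detected in part, beside 61.3% of all genes. For visceral endoderm, 9 of 12 were detected in neither clone, among them Afp, Ttr and Hnf4a, 2 in both (Amn and Rhox5) and 1 in clone 2 only (Gata6). The summed signal of those 2 was -0.30 and -0.65 log2. For node and notochord, 5 of 8 were detected in neither (Shh, T, Noto, Foxa2 and Cer1) and 3 in both (Chrd, Nog and Foxj1). The summed signal of those 3 was -0.85 in clone 1 and 0.12 in clone 2, and without Foxj1 it was -1.33 and -1.12. For neural tube and floor plate, 4 of 8 were detected in neither (Pax6, Pax3, Foxa2 and Shh) and 4 in both (Sox1, Nkx2-2, Nkx6-1 and Olig2), whose sum was -0.28 and -0.52. The 4 detected are neural tube genes, and Nkx2-2 is also a listed Hedgehog target. Whether cells with these genes were a source of ligand was not tested. Of 5 macrophage markers, 3 were detected in both (sums of 1.39 and 1.61) and 1 in each clone only. Shh, itself a member, was counted in the node and neural lists, and Foxa2 in these and in visceral endoderm. The counts of these lists are therefore not independent of each other or of the Shh result above. In such bulk RNA, fewer cells of a type and less RNA per cell cannot be told apart.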

How the data were processed

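Per the file headers, each 1-colour Agilent array (design 026655, probe positions on mm9) was read with Feature Extraction 11.0.1.1, which subtracted background, removed spatial trends and put surrogates in place of signals not above their error. The deposited scanner files hold these intensity values per spot, the software's errors (with a multiplicative part of 0.1), its flags and its p-value for a spot against background. The authors' deposited table of normalized intensity values was used as an alternative, and how it was normalized is unknown here.

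Outlier spots were left out (277 and 246), spots of a probe averaged in log2, and the 75th percentile subtracted on each array. Detection of a probe required the well-above-background flag on 50% or more of its spots. A gene takes its probe with the highest mean signal. Genes other than the members were named through RefSeq (GRCm38.p6), by accession for 26152 probes, by symbol for 3135 and by an older symbol for 910. The error of a difference combines both spots' relative errors. For probes printed 8 times or more and detected, the median SD between spots was 0.067 log2 in clone 1 and 0.083 in clone 2, and 0.11 and 0.13 below -2. With 1 array per clone no p-value was computed. A bound (at least so many fold) compares the bright signal with the dim array's lowest detected signal, or with the dim spot itself if that is higher (-4.54 and -4.55 log2). It takes no account of reading error, so the true fold may be smaller.

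Named were the members, pathway genes 1.5-fold apart or detected on 1 array, and paralogs; other pathway genes are named as detected or not, and markers as examples of their list. The values of 1 listed gene are not reported here. Members and lists were chosen with earlier results of these data known. The computation was checked on simulated arrays. Python 3.11.15 and limma 3.58.1 were used.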

Additional observations from a re-analysis of the deposited data

How the results depend on the processing

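No paired analysis was possible because each clone has 1 array. The difference between clones of the 5 measured members was recomputed with scaling to detected probes, quantile normalization, normexp correction, the authors' deposited table, no filter on dim probes, flagged spots kept, spots beside a 2-fold neighbour left out, and the mean of all probes. It moved by more than the software's error with normexp correction for Ptch1 (0.27), Sufu (0.55) and Hhip (0.24), and with the mean of all probes for Smo (0.051) and Hhip (-0.36). With normexp correction and its offset of 50, the dim genes Ptch1, Sufu, Hhip, Gli2, Disp1, Scube2, Ift140 and Osr1 all moved towards clone 2. Glis1, also dim, moved the other way, from 1.04 to 0.87. The changes of sign are therefore not read as separate findings for each gene, and their cause was not tested. In the mean, a dark or opposite probe enters. In each of these settings 0 members were 2-fold apart. Members detected on both arrays numbered 6 with the positive and significant flag (Gli2 added), 3 against the negative controls (Ptch1, Smo and Gli3) and 2 when every probe had to be detected (Smo and Gli3). For the negative controls the cut-off was their mean plus 3 SD, which a few bright control spots raise. The SD of their background-subtracted signals was 31.3 in clone 1 and 9.00 in clone 2, with highest spots of 309 and 84.9. Pathway genes 2-fold apart numbered 3 with scaling to detected probes. Without the filter on dim probes, 839 genes were 2-fold higher in clone 2 and 631 in clone 1. Surrogates and measured signals near background both enter in that setting, and the part of each was not tested. Genes higher in clone 1 numbered 61 with normexp correction and 92 without spots beside a 2-fold neighbour. Signals near background limit Gli2, Sufu and Hhip.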

Other observations

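Foxj1, the transcription factor of motile cilia and of node cells, was chosen after its values were seen. It gave 129 ± 14.7 in clone 1 against 453 ± 45.8 in clone 2 (chr11:116192214-116192273 in mm9), and was 3.95-fold higher in clone 2. The difference of 1.98 log2 was 1.498 with normexp correction and 1.91 to 2.03 in the other settings. Of the other 7 markers listed for node and notochord, Chrd and Nog were detected in both clones with differences of -0.14 and 0.31, and Shh, T, Noto, Foxa2 and Cer1 in neither.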
